A study of Mus musculus with 32 samples.

Results

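The enzymes of the urea cycle and of glutamine synthesis were followed at the RNA level in liver and epididymal white adipose tissue (eWAT). The set held 10 genes of the 47643 in the table: Nags, Cps1, Otc, Ass1, Asl, Arg1 and Arg2 for the enzymes, Slc25a15 and Slc25a13 for the mitochondrial carriers, and Glul for glutamine synthetase. They were chosen by name for their function, with earlier results of these data known, and each matched 1 Ensembl gene. Male C57BL/6 mice (C57BL/6J per the methods of the study), 10 weeks old when the interventions began, were kept for 7 days on a normal-protein diet (NPD, 20% of kcal from protein) or an isocaloric high-protein diet (HPD, 60%), in which protein took the place of starch. On each diet they drank corticosterone (Cort, the main glucocorticoid of mice) or its ethanol vehicle (Veh), so that ethanol was common to all groups, and tissues were taken after a short fast. Each of the 4 groups gave 4 libraries per tissue, 32 in all.

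Amino acids that are burned release ammonia, which mammals dispose of in the liver. In the mitochondria N-acetylglutamate, made by Nags, switches on Cps1, which captures ammonia as carbamoyl phosphate, and Otc joins this to ornithine to form citrulline. In the cytosol Ass1 and Asl add aspartate and split off fumarate to yield arginine, and Arg1 cleaves arginine into urea and ornithine. This pathway belongs mostly to hepatocytes near the portal vein, whereas Glul, which fixes the ammonia that escapes them into glutamine, is confined in liver to a thin layer of hepatocytes around the central vein. Adipose tissue has no complete urea cycle but is known to release glutamine. Glucagon and glucocorticoids are classical inducers of the urea cycle enzymes.

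Levels are given in CPM, the counts of a gene relative to all counts of its library, scaled with edgeR's TMM factors. The libraries (QuantSeq) read each transcript once from its 3′ end, so a level does not grow with transcript length. Totals ran from 8933307 to 17447524 counts in liver and from 9794683 to 18057936 in eWAT. The liver library of Veh HPD replicate 4 stood apart, with a mean correlation to its group mates of 0.912 against 0.943 to 0.953 among the others, and was left out of the tests, so that liver Veh HPD had n = 3. Liver Cort HPD replicate 1 also stood apart (0.961 against 0.971 to 0.973), with 15.2% of its counts on Alb, the albumin gene, against 9.69% to 11.4% in its group mates. The eWAT library of Cort HPD replicate 4 held 9285 CPM of epididymis and testis markers, against 11.4 CPM in Cort HPD replicate 3, 6.02 CPM in Cort HPD replicate 2 and at most 5.88 CPM in the other eWAT libraries. Some results that rest on these libraries, mainly of the members, are given with and without them. For the others this is not shown. Hepatocyte markers summed to between 81560 and 188549 CPM in the 15 liver libraries tested, to 59078 CPM in Veh HPD replicate 4, which also held the most macrophage (367 CPM) and exocrine pancreas (230 CPM) markers, and to between 35.6 and 87.1 CPM in eWAT, and adipocyte markers to between 38.2 and 103 CPM in liver and between 28422 and 37798 CPM in eWAT. In bulk RNA, fewer cells of a type and less RNA per cell cannot be told apart.

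Promoters of 6 members (Nags, Otc, Ass1, Slc25a15, Slc25a13 and Glul) were in the RefSeq table for GRCm38.p6, each as 300 bases from 250 before the start site to 50 after. For Slc25a15, listed with 2 starts, the start nearest to that of the gene annotation was used. Cps1, Asl, Arg1 and Arg2 had no entry. The 4 below are shown because they belong to a gene higher on the HPD (Ass1), genes that rose or fell with cort (Slc25a15 and Otc) and the gene abundant in both tissues (Glul). Capitals mark the motifs found.
Ass1 (chr2:31470020-31470319, plus strand): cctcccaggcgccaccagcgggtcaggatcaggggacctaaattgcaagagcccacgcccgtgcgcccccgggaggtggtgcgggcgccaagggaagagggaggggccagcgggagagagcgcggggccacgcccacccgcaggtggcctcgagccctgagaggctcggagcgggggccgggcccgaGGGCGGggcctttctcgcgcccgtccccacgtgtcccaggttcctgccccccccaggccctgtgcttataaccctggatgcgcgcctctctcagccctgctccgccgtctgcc
Slc25a15 (chr8:22398572-22398871, minus strand): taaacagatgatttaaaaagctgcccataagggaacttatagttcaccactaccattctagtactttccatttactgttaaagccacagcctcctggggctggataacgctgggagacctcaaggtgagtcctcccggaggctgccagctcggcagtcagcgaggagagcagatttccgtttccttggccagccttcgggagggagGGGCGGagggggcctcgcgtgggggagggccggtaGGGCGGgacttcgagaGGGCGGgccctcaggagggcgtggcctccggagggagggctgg
Otc (chrX:10252055-10252354, plus strand): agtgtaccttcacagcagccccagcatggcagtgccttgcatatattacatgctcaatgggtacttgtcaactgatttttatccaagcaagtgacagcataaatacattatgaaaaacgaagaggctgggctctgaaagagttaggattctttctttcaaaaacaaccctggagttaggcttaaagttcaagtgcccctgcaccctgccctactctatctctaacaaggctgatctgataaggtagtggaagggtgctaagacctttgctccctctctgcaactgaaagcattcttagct
Glul (chr1:153899679-153899978, plus strand): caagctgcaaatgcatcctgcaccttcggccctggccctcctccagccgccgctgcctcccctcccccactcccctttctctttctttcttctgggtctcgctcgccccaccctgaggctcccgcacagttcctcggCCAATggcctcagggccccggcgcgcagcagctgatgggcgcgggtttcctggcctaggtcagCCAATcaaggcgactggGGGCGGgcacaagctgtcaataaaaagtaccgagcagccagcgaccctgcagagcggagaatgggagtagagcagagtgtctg
The motifs searched on both strands were the TATA box TATAAA, the CCAAT box CCAAT, the GC box GGGCGG, the glucocorticoid receptor half-site AGAACA, the C/EBP site TTGCNNAA and the cAMP response element TGACGTCA. None of the 6 letter strings overlapped another where they were found. GGGCGG occurred once in Ass1 and once in Glul and 3 times in Slc25a15, and 35.7% of all 32851 promoters of this length hold it. CCAAT occurred 2 times in Glul, at −113 and −50 from the start site, and is held by 37.4% of promoters. The 300 bases of Otc, with 44.3% G and C against 74.0% in Ass1, held none of the 6. AGAACA (in 19.0% of promoters), TTGCNNAA (10.8%), TATAAA (13.6%) and TGACGTCA (1.79%) were found in no promoter of the 6 members. These are matches of letters within a short window and say nothing of where a factor binds.

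The first question was whether dietary protein alone changed these genes. In livers of veh-treated mice, Cps1, Ass1 and Asl were higher in all 3 HPD libraries than in any of the 4 NPD libraries, but the differences did not pass the test across all genes. Cps1 (carbamoyl phosphate synthetase, the entry enzyme; chromosome 1, 67123026 to 67231259) was at 695, 614, 762 and 827 CPM on the NPD and at 1839, 1144 and 1299 CPM on the HPD. Its mean was 724 ± 91.4 CPM (SD, n = 4) against 1427 ± 365 CPM (SD, n = 3). Ass1 (argininosuccinate synthetase; chromosome 2, 31470207 to 31520672) was at 582, 601, 571 and 639 CPM on the NPD and at 1430, 1004 and 963 CPM on the HPD. Its NPD libraries lay within a narrow band, and the lowest HPD library was well above them. Asl (argininosuccinate lyase; chromosome 5, 130011258 to 130029247) was at 153, 161, 132 and 196 CPM on the NPD and at 249, 233 and 221 CPM on the HPD.

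The log2 fold change of HPD over NPD in veh mice was 0.98 ± 0.21 for Cps1 (SE; 95% interval 0.54 to 1.42; edgeR adjusted p = 0.0654), 0.92 ± 0.22 for Ass1 (adjusted p = 0.0971) and 0.55 ± 0.16 for Asl (adjusted p = 0.202). None of the 9 members tested in liver was called by edgeR, where 0.169% of all 12391 genes tested were. At an unadjusted p under 0.05 there were 3 members, against 9.40% of all genes tested. DESeq2 called 2 members, against 0.912% of all genes, and limma voom 0, against 0.113%. Groups that did not overlap were found for 3 of 9 members, all higher, against 9.47% of all genes tested. Without Cort HPD replicate 1, Cps1 and Ass1 were both called, each at adjusted p = 0.00872, where 0.324% of 12349 genes were. That library is of neither group and enters through the shared estimate of spread, the gene filter, the scaling and the adjustment. Of the 15 fits with a library left out, Cps1 was called in this 1, and its adjusted p reached 0.362 in another. With Veh HPD replicate 4 included, which held 1039 CPM of Cps1, 730 CPM of Ass1 and 221 CPM of Asl, the changes were 0.88 and 0.79 for Cps1 and Ass1 (adjusted p = 0.110 and 0.155). The other members lay nearer to 0. Otc, Nags, Arg1, Slc25a15 and Slc25a13 had changes between −0.06 and 0.11, and their intervals stayed within −0.42 to 0.47.

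**Figure D1:**
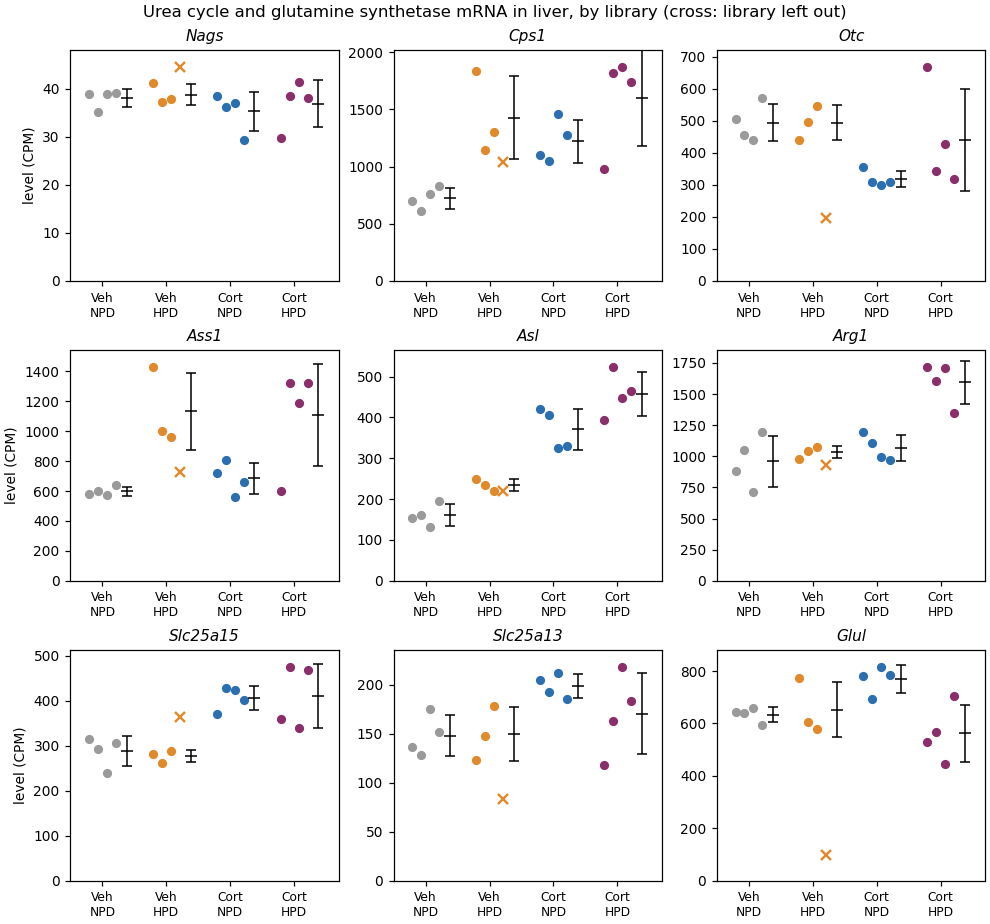
Levels of the 9 members tested in liver, in CPM on linear axes from 0, for each library (points), with the mean and SD of the libraries tested beside them. The cross is Veh HPD replicate 4, left out of the tests, where Glul was at 96.6 CPM. Cps1, Ass1 and Asl were higher in every Veh HPD library tested than in every Veh NPD library.

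The same question was asked in cort-treated mice. Here Ass1 and Arg1 rose on the HPD, and they were the 2 members called of 9, where 5.88% of all genes tested were called. Ass1 was at 719, 805, 558 and 657 CPM in Cort NPD and at 603, 1322, 1186 and 1319 CPM in Cort HPD. Replicate 1 of Cort HPD lay among the NPD libraries and the other 3 lay above all of them. The log2 fold change was 0.69 ± 0.20 (SE; adjusted p = 0.0454), and 0.90 ± 0.15 without that library (adjusted p = 0.00153). Arg1 (arginase 1, the last step of the cycle; chromosome 10, 24915221 to 24927484) was at 1199, 1107, 991 and 970 CPM in Cort NPD and at 1718, 1605, 1709 and 1349 CPM in Cort HPD, so that the groups did not overlap. That held for 1 of 9 members and for 13.3% of all genes. On the log2 scale Arg1 was higher by 0.58 ± 0.16 (SE; adjusted p = 0.0348).

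Cps1 in the cort-treated mice was at 1103, 1045, 1459 and 1273 CPM on the NPD and at 979, 1818, 1871 and 1743 CPM on the HPD. The log2 fold change of 0.39 ± 0.20 was not called (adjusted p = 0.255). Without Cort HPD replicate 1, the mean of Cort HPD moved from 1603 ± 419 (SD, n = 4) to 1811 ± 64.3 CPM (SD, n = 3), and the change of 0.57 ± 0.17 was called (adjusted p = 0.0480), while that of Arg1 (0.54 ± 0.16) was no longer called (adjusted p = 0.0508). These calls lay close to the threshold. The call of Ass1 was lost without Veh NPD replicate 1, 2 or 4, Cort NPD replicate 1, 3 or 4, or Cort HPD replicate 2, 3 or 4 (adjusted p = 0.0508 to 0.140). The call of Arg1 was lost without Cort NPD replicate 2, 3 or 4 or Cort HPD replicate 1, 2 or 3 (adjusted p = 0.0508 to 0.0937). With library totals in place of TMM factors, which lowers the median of all genes by 0.17 on the log2 scale in this comparison, neither was called (adjusted p = 0.147 for Ass1 and 0.0844 for Arg1). With all 16 liver libraries neither was called (adjusted p = 0.109 and 0.0743).

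Markers of other cell types also moved between these groups. Red blood cell markers summed to between 1407 and 3533 CPM in Cort NPD and between 4632 and 6942 CPM in Cort HPD, without overlap, with Hbb-bs and Hbb-bt, the beta globins, called higher and Alas2 lower of 5. Hepatocyte markers summed to between 103033 and 125824 CPM in Cort NPD and between 139416 and 188549 CPM in Cort HPD, again without overlap, with Alb, Ttr and Tat called higher of 8. Alb alone held 6.79% to 9.27% of the counts in Cort NPD and 9.69% to 15.2% in Cort HPD, and the median log2 fold change of the 8 was 0.48. Of 7 macrophage markers tested, Cd163 was called lower. The part of these shifts in the changes of Ass1 and Arg1 was not tested.

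**Figure D2:**
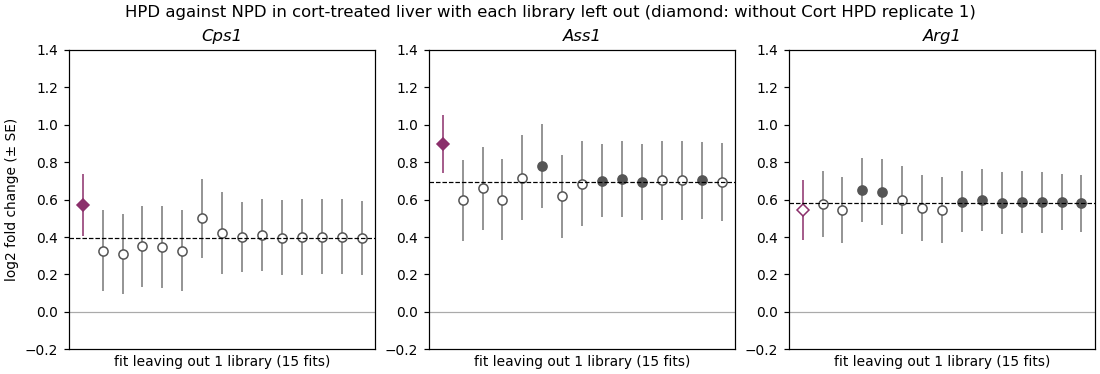
Log2 fold change of HPD over NPD in cort-treated liver for Cps1, Ass1 and Arg1 in the 15 fits that each leave out 1 library. Points are estimates with their SE, filled where the adjusted p was under 0.05; the dashed line is the fit of all 15 libraries and the diamond the fit without Cort HPD replicate 1, where Ass1 reached 0.90 and Cps1 0.57.

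Cort HPD replicate 1 departed from its group in most members at once, in both directions. It had the lowest level in the group of Cps1 (979 CPM), Ass1 (603), Asl (393), Nags (29.8) and Slc25a13 (119), and the highest of Otc (668) and, narrowly, of Arg1 (1718). Its 10 members together held 0.407% of all counts, against 0.609% to 0.676% in the other 3 libraries of the group. In the same library Alb took its 15.2% of the counts. The part of that share in the members' levels was not tested. For Otc, the difference between diets in cort mice was 0.46 ± 0.19 with it (adjusted p = 0.149) and 0.19 ± 0.14 without it (adjusted p = 0.499).

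**Figure D3:**
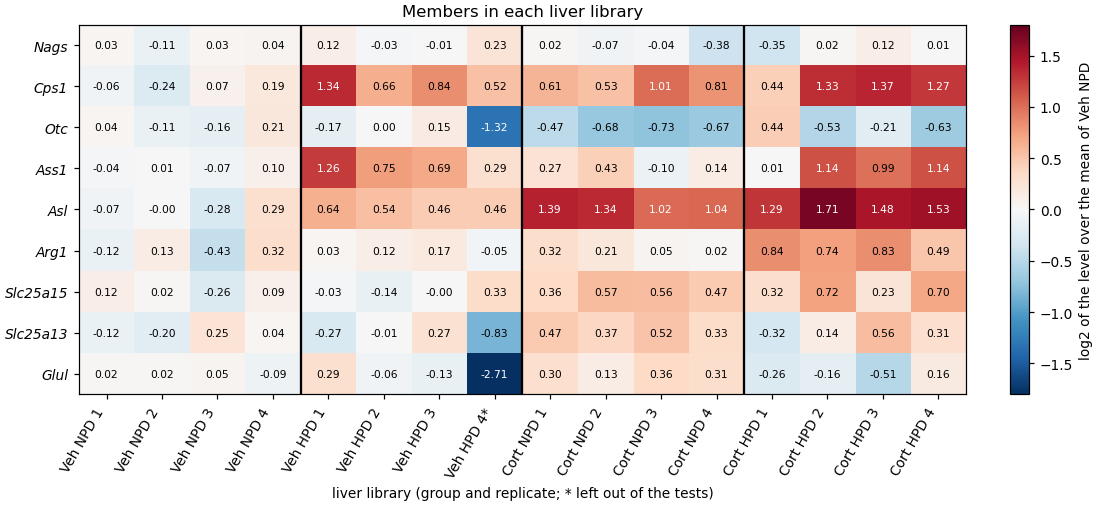
Log2 of the level of each member over its mean in Veh NPD, for all 16 liver libraries in columns (the asterisk marks the library left out of the tests); the colours stop at 1.8 in either direction and the printed values do not. Cort HPD replicate 1 is at 0.01 for Ass1 and 0.44 for Otc, where the other 3 libraries of its group lie at 0.99 to 1.14 and at −0.63 to −0.21.

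The next question was what cort did on each diet. On the NPD, cort raised Cps1, Asl and Slc25a15 and lowered Otc in liver. These were 4 of 9 members called, where 12.6% of all genes tested were called. Asl moved most, from 161 ± 26.7 CPM in Veh NPD to 371 ± 49.7 CPM in Cort NPD (SD, n = 4 each), whose libraries were at 421, 406, 326 and 330 CPM. All 4 cort libraries lay far above the highest veh library, and the log2 fold change of 1.21 ± 0.15 (SE; adjusted p = 1.18e-05) was a 2.31-fold rise. It was called in all 15 fits with a library left out. Cps1 rose by 0.75 ± 0.20 (SE; adjusted p = 0.0140), with every Cort NPD library (1045 to 1459 CPM) above every Veh NPD library. The call was lost without Veh NPD replicate 2 or Cort NPD replicate 3 (adjusted p = 0.0595 and 0.0593). With all 16 liver libraries Asl and Cps1 were called (adjusted p = 6.57e-05 and 0.0408), and Slc25a15 (0.50 ± 0.16, adjusted p = 0.0633) and Otc (−0.63 ± 0.26, adjusted p = 0.148) were not.

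Slc25a15 (the mitochondrial ornithine carrier, which brings ornithine to Otc; chromosome 8, 22375551 to 22398597) was at 314, 292, 240 and 306 CPM in Veh NPD and at 370, 429, 424 and 400 CPM in Cort NPD. The groups did not overlap, and the log2 fold change was 0.49 ± 0.15 (SE; adjusted p = 0.0273). Otc (ornithine transcarbamylase; chromosome X, 10252305 to 10321024) was at 506, 456, 441 and 571 CPM in Veh NPD and at 355, 309, 298 and 310 CPM in Cort NPD. It was the 1 member called lower, by 0.63 ± 0.19 on the log2 scale (SE; adjusted p = 0.0276), again without overlap. Carrier and enzyme, which act in sequence on ornithine, thus changed in opposite directions in the same livers. Groups without overlap were found for 6 of 9 members, 5 higher and 1 lower, against 18.5% of all genes tested. Those not called were Slc25a13 (0.42 ± 0.17, adjusted p = 0.107) and Glul (0.28 ± 0.15, adjusted p = 0.253). The call of Slc25a15 was lost without Veh NPD replicate 2 or 3 or Cort NPD replicate 2, 3 or 4 (adjusted p = 0.0581 to 0.0940), and with library totals (adjusted p = 0.0711). That of Otc was lost without Veh NPD replicate 1 or 4 or Cort NPD replicate 2, 3 or 4 (adjusted p = 0.0548 to 0.0820). Slc25a13 (the aspartate and glutamate carrier citrin, which supplies aspartate to Ass1) was called without Cort HPD replicate 1 (adjusted p = 0.0410).

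On the HPD, cort raised Asl, Arg1 and Slc25a15, 3 of 9 members called where 9.89% of all genes tested were. Asl was at 249, 233 and 221 CPM in Veh HPD and at 393, 524, 447 and 464 CPM in Cort HPD. Its change of 0.96 ± 0.17 (SE; adjusted p = 0.000618) was called in all 15 fits with a library left out. Arg1 was at 979, 1045 and 1079 CPM in Veh HPD and above 1300 CPM in each Cort HPD library, a change of 0.63 ± 0.18 (SE; adjusted p = 0.0265). Slc25a15 was at 282, 261 and 288 CPM in Veh HPD and at 360, 475, 339 and 469 CPM in Cort HPD, a change of 0.57 ± 0.16 (SE; adjusted p = 0.0263). These 3 were also the members whose groups did not overlap, against 21.2% of all genes tested. Without Cort HPD replicate 1 the changes were 1.03 for Asl, 0.59 for Arg1 and 0.62 for Slc25a15 (adjusted p = 0.000203, 0.0348 and 0.0111). Cps1 (0.17 ± 0.21, adjusted p = 0.678), Ass1 (−0.03 ± 0.22, adjusted p = 0.952) and Otc (−0.17 ± 0.20, adjusted p = 0.646) were not called. Without Cort HPD replicate 1 the change of Otc was −0.45 ± 0.15 (adjusted p = 0.0700) and that of Cps1 was 0.34 ± 0.18 (adjusted p = 0.248).

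With Veh HPD replicate 4 included, Asl changed with cort on the HPD at an adjusted p of 0.000657 and Arg1 by 0.68 ± 0.18 (adjusted p = 0.0208), while Slc25a15, at 363 CPM in that library, was no longer called (0.48 ± 0.16, adjusted p = 0.0699). The call of Arg1 was lost without Veh HPD replicate 1, 2 or 3 or Cort HPD replicate 2 or 3 (adjusted p = 0.0502 to 0.106), and that of Slc25a15 without Veh HPD replicate 1, 2 or 3 or Cort HPD replicate 2 or 4 (adjusted p = 0.0584 to 0.0881). With library totals, which lower the median of all genes by 0.24 on the log2 scale here, only Asl was called of the 9, and Arg1 (0.38) and Slc25a15 (0.34) lay 0.62 and 0.58 above that median. Between Veh HPD and Cort HPD, macrophage markers summed to between 126 and 178 CPM against between 62.0 and 101 CPM, with 3 of 7 called lower (Csf1r, Cd163 and Clec10a). Red blood cell markers summed to between 1898 and 3849 CPM against between 4632 and 6942 CPM (2 of 5 called higher and 1 lower), and hepatocyte markers to between 81560 and 87344 CPM against between 139416 and 188549 CPM (3 of 8 higher). These sums did not overlap between the groups tested. Alb alone held 3.72% to 4.47% of the counts in the Veh HPD libraries tested and 9.69% to 15.2% in Cort HPD. The median log2 fold change of the 8 hepatocyte markers was 0.08. The part of these markers in the changes of Asl, Arg1 and Slc25a15 was not tested.

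**Figure D4:**
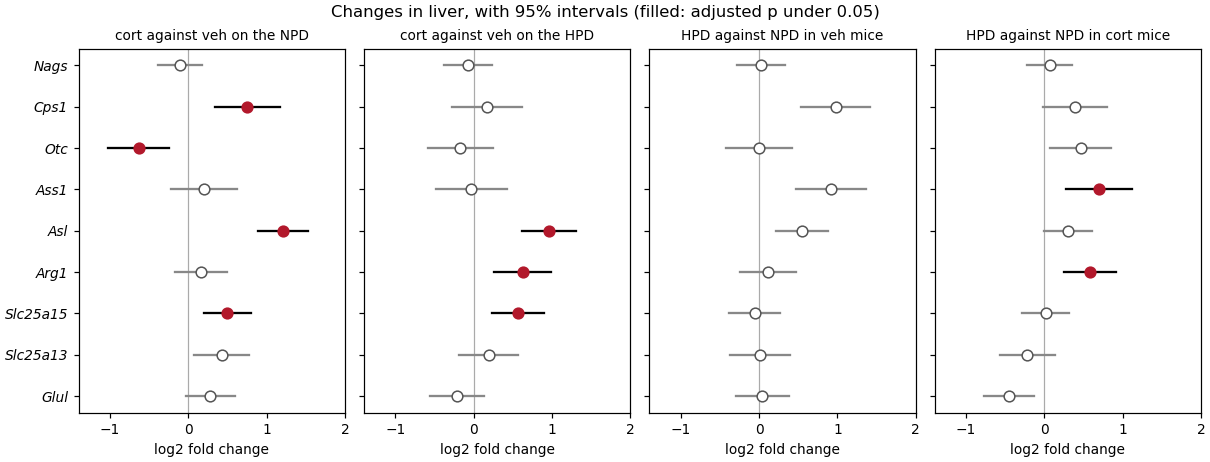
Log2 fold changes of the 9 members tested in liver for the effect of cort on each diet and of diet under each treatment, with 95% intervals; filled points have an adjusted p under 0.05. Asl lies at 1.21 and 0.96 in the cort comparisons, and Cps1 and Ass1 lie at 0.98 and 0.92 for the HPD in veh mice without being called.

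Each of these comparisons shares a group with 2 of the others, so they are not independent. Whether the cort effect differed between diets was tested as an interaction, and no member was called by edgeR, where 0.113% of all genes tested were. Glul was the 1 member of 9 with an unadjusted p under 0.05, against 12.1% of all genes tested. DESeq2 and limma voom also called 0 members, where they called 1.05% and 0.0242% of all genes. The interaction was −0.58 ± 0.29 for Cps1 (adjusted p = 0.430), 0.47 ± 0.24 for Arg1 (adjusted p = 0.438) and 0.46 ± 0.28 for Otc (adjusted p = 0.515). The intervals were wide, from −1.19 to 0.02 for Cps1. A call of Arg1 on the HPD and of Cps1 and Otc on the NPD is therefore not shown to be a difference between diets.

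Nags (N-acetylglutamate synthase; chromosome 11, 102145513 to 102149477) was the lowest of the 9 members tested in liver, between 29.3 and 41.3 CPM in the 15 libraries, and its 4 simple contrasts lay between −0.11 and 0.07. Its intervals stayed within −0.39 to 0.35. Slc25a13 (chromosome 6, 6041218 to 6217173) lay between 119 and 218 CPM. Arg2 (the mitochondrial arginase, found mainly outside liver; chromosome 12, 79130777 to 79156301) was too low for the test in liver, at most 1.10 CPM in the 15 libraries and 1.43 CPM in Veh HPD replicate 4. Its annotated span overlaps Vti1b on the opposite strand, which had 42836 counts over all libraries against 425 for Arg2. How the counting treated strand is not given in the sources used here, so that reads of the 2 genes may not have been told apart.

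Glul in liver (glutamine synthetase; chromosome 1, 153899944 to 153909723) was at 643, 642, 657 and 594 CPM in Veh NPD and at 773, 607 and 578 CPM in Veh HPD. With cort it was at 780, 694, 816 and 786 CPM on the NPD and at 531, 568, 446 and 706 CPM on the HPD. Among the libraries tested, the highest levels were thus in Cort NPD and the lowest in Cort HPD, and these groups overlapped by 1 library, since 706 CPM lay above 694 CPM. The change of HPD over NPD in cort mice was −0.45 ± 0.15 (SE; adjusted p = 0.0832 with edgeR, 0.0362 with DESeq2, 0.0597 with limma voom, and 0.0365 without Cort HPD replicate 4). The change with cort was 0.28 ± 0.15 on the NPD and −0.21 ± 0.16 on the HPD (adjusted p = 0.253 and 0.455). The interaction was −0.49 ± 0.22 (edgeR adjusted p = 0.376). In Veh HPD replicate 4 Glul was at 96.6 CPM and Otc at 197 CPM. Markers of hepatocytes around the central vein summed to 1232 CPM there, against 2491 to 3326 CPM in its group mates. With that library the change of Glul on the HPD in veh mice went from 0.04 ± 0.16 to −0.30 ± 0.38 (adjusted p = 0.764).

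Genes next to the pathway were followed as a list of 22 that make, carry or consume its intermediates, of which 19 were tested in liver. With cort on the NPD 3 rose and 4 fell, where 12.6% of all genes tested were called. The list's median log2 fold change was 0.12 against −0.01 over all genes. Odc1 (ornithine decarboxylase, which draws ornithine into polyamines) rose from 6.14 ± 1.71 to 13.7 ± 0.85 CPM (SD, n = 4 each), by 1.17 ± 0.18 (adjusted p = 0.000148). Gatm, which uses arginine for creatine, fell by 1.64 ± 0.36 (adjusted p = 0.00418) from a low level of 3.09 CPM, and Agmat (agmatinase) fell by 0.79 ± 0.19 (adjusted p = 0.00822). Slc1a2, a glutamate transporter of the hepatocytes around the central vein, rose by 0.82 ± 0.14 (adjusted p = 0.000285). On the HPD, cort raised 2 and lowered 2 of the 19, where 9.89% of all genes tested were called. They were Odc1 (1.28 ± 0.20), Slc25a12 (0.97 ± 0.22), a close relative of Slc25a13, Gatm (−1.76 ± 0.38) and Agmat (−0.79 ± 0.20). The calls of Slc25a12 without Veh HPD replicate 1 (adjusted p = 0.0520) and of Agmat without Veh HPD replicate 3 (adjusted p = 0.110) were lost, and those of Odc1 and Gatm held in all 15 fits with a library left out.

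HPD over NPD in cort mice also gave 2 higher and 2 lower of the 19, where 5.88% of all genes tested were called. Oat (ornithine aminotransferase) rose from 277 ± 108 to 518 ± 60.7 CPM, by 0.90 ± 0.20 (adjusted p = 0.0105), and Slc38a3, a glutamine transporter, by 0.51 ± 0.15 (adjusted p = 0.0495). Rhbg, an ammonia transporter, fell by 0.99 ± 0.26 (adjusted p = 0.0281) and Slc25a22, a mitochondrial glutamate carrier, by 0.73 ± 0.20 (adjusted p = 0.0348). Of these, Oat was called in all 15 fits with a library left out, while Slc38a3 was lost in 10 (adjusted p up to 0.134), Slc25a22 in 5 (up to 0.118) and Rhbg in 4 (up to 0.0829). In veh mice 1 of 19 was called, where 0.169% of all genes tested were. It was Gls2, the liver glutaminase that feeds ammonia to Cps1, which went from 224 ± 27.9 CPM (n = 4) to 377 ± 25.3 CPM (n = 3), by 0.75 ± 0.15 (adjusted p = 0.0474). That call was lost in 13 of the 15 fits with a library left out, with an adjusted p of up to 0.149.

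Regions of the liver lobule were followed by markers, in which some genes also stand in the list above. Of all genes tested in liver, 12.6% were called for cort on the NPD and 9.89% for cort on the HPD. For the HPD these shares were 5.88% in cort mice and 0.169% in veh mice. Of 10 markers of hepatocytes near the portal vein, 2 were called for the HPD in veh mice (Aldh1b1, 1.21 ± 0.18, adjusted p = 0.00203, and Gls2) and 2 in cort mice (Etnppl, 0.85 ± 0.19, and Aldh1b1, 0.70 ± 0.16), all higher. With cort on the NPD 2 rose (Etnppl by 1.30 ± 0.19 and Aldh1b1 by 1.07 ± 0.17) and Ctsc fell by 0.71 ± 0.20, and on the HPD 2 rose (Etnppl by 1.29 ± 0.21 and Hsd17b13 by 0.89 ± 0.24). Etnppl, which breaks down phosphoethanolamine, was called in all 15 fits with a library left out in each of these 3 comparisons. The call of Aldh1b1 for the HPD in cort mice was lost in 1 of 15 such fits (edgeR adjusted p = 0.0542). Its calls for the HPD in veh mice and for cort on the NPD held in all 15. Of 12 markers of hepatocytes around the central vein, cort on the NPD raised 3 and lowered 2, among them Slc1a2, Gstm3 (2.34 ± 0.49), Znrf3 (0.65 ± 0.19) and Cyp2e1 (−0.70 ± 0.18). Cort on the HPD raised Gstm3 (2.37 ± 0.54) and Rnf43 (0.90 ± 0.24) and lowered Cyp2e1 (−1.04 ± 0.20) and Cyp1a2 (−1.62 ± 0.43), both enzymes of drug metabolism. The HPD in cort mice raised Oat and lowered Rhbg, as above. With a library left out, calls were lost for cort on the NPD in 4 of 15 fits for Znrf3, 3 for Ctsc and 1 for Cyp2e1 (without Cort NPD replicate 3, adjusted p = 0.0522), and for cort on the HPD in 5 for Cyp1a2, 3 each for Rnf43 and Hsd17b13 and 2 for Gstm3. Of 10 regulators of the urea cycle genes, Cebpb, a transcription factor, was the 1 called with cort, a share near that of all genes. It was lower by 0.93 ± 0.25 on the NPD and by 1.44 ± 0.27 on the HPD. The call on the NPD was lost in 4 of 15 fits with a library left out (adjusted p up to 0.0647) and that on the HPD in 0. The sum of 8 macrophage markers lay between 137 and 209 CPM in Veh NPD and between 60.7 and 146 CPM in Cort NPD, with 2 of 7 tested called lower (Adgre1 and Csf1r). Of 8 hepatocyte markers, 1 was called higher (Cyp3a11) and 3 lower (Apoa1, Fgb and Tat) with cort on the NPD, and exocrine pancreas markers summed to between 40.0 and 80.5 CPM in Veh NPD, 32.8 and 164 CPM in Veh HPD, and 16.9 and 22.2 CPM in the 8 cort libraries. Central vein markers summed to between 2191 and 2851 CPM in Veh NPD and between 1300 and 1812 CPM in Cort NPD. On the HPD the sums were 2491 to 3326 CPM with veh and 1219 to 1892 CPM with cort. Their median log2 fold change with cort was −0.03 on the NPD and 0.04 on the HPD. Portal vein markers summed to 3608 to 3848 CPM in Veh NPD and 4184 to 4529 CPM in Cort NPD. On the HPD they summed to 4053 to 4624 CPM with veh and 3430 to 4861 CPM with cort. The part of these lists in the members' changes was not tested.

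In eWAT the cycle was not complete at the RNA level. Otc had 0 counts in all 16 libraries, which allows at most 0.306 CPM in the shallowest (3 counts, counting error only). Cps1 had 39 counts in all, with 12 libraries at 0 and the highest at 1.30 CPM, and Nags had 19 counts, all in Cort HPD replicates 1 and 4. Ass1 reached 1.35 CPM and Arg1 3.29 CPM at most. Asl (5.97 to 13.6 CPM) and Slc25a15 (8.88 to 22.3 CPM) were present in every library. Glul was the exception, between 965 and 2304 CPM, and its median of 1569 CPM compared with 643 CPM over the 15 liver libraries. That order was the same with library totals (1599 and 692 CPM).

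Glul in eWAT was at 1185, 1826, 965 and 1434 CPM in Veh NPD and at 2043, 1876, 2204 and 1830 CPM in Cort NPD. Every Cort NPD library lay above every Veh NPD library, the highest of which, replicate 2, nearly reached them. On the HPD it was at 1154, 1590, 1278 and 2304 CPM with veh and at 1488, 1526, 1747 and 1549 CPM with cort, where the groups overlapped. The change with cort on the NPD was 0.56 ± 0.19 (SE; 95% interval 0.17 to 0.94; adjusted p = 0.0709 with edgeR). It was called with DESeq2 (adjusted p = 0.0253) and limma voom (0.0352), and with edgeR without Veh NPD replicate 2 (0.73, adjusted p = 0.0133) or Veh HPD replicate 4 (0.56, adjusted p = 0.0159). On the HPD the change with cort was 0.00 ± 0.19 (95% interval −0.39 to 0.38), and the interaction was −0.56 ± 0.26 (edgeR adjusted p = 0.948). Between diets in cort mice, every HPD library lay below every NPD library, a change of −0.33 ± 0.19 (adjusted p = 0.594). Glul was the 1 of 6 members tested in eWAT without overlap in this comparison and in that of cort on the NPD. Of all genes tested, 6.66% and 14.9% did not overlap there. For cort on the HPD the 1 without overlap was Arg1, lower and at most 2.14 CPM, against 11.3% of all genes. The Glul gene overlaps Teddm2 on the opposite strand, with 15803 counts over all libraries against 504977 for Glul.

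**Figure D5:**
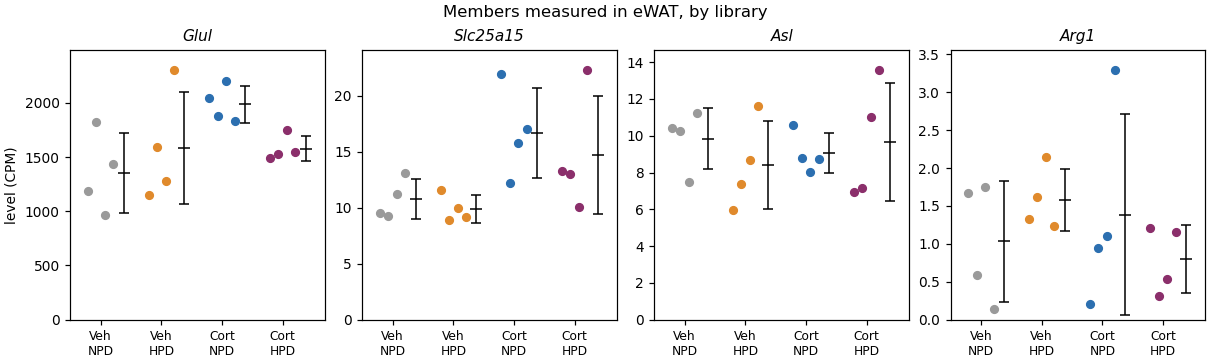
Levels of Glul, Slc25a15, Asl and Arg1 in eWAT, in CPM on linear axes from 0, for each of the 16 libraries (points), with the mean and SD of each group of 4 beside them. Glul lies between 1830 and 2204 CPM in Cort NPD and between 965 and 1826 CPM in Veh NPD.

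Of the 6 members tested in eWAT (Asl, Arg1, Arg2, Slc25a15, Slc25a13 and Glul), 0 were called by edgeR in each of the 5 contrasts. The share of all 15187 genes called was 7.98% for cort on the NPD, 6.09% for cort on the HPD, 0.0593% for the HPD in veh mice, 0.487% for the HPD in cort mice and 0.0132% for the interaction. At an unadjusted p under 0.05 there were 2 members for cort on each diet (Glul and Slc25a15 on the NPD, Arg2 and Slc25a15 on the HPD), 1 for the interaction (Glul) and 0 for either diet contrast. The share of all genes at that threshold was 20.3% for cort on the NPD, 18.9% for cort on the HPD and 5.16% for the interaction. It was 8.03% and 9.81% for the HPD in veh and cort mice. DESeq2 and limma voom each called 1 (Glul, cort on the NPD), where they called 10.1% and 7.64% of all genes, and otherwise 0. Slc25a15 changed with cort by 0.63 ± 0.24 on the NPD (adjusted p = 0.115) and by 0.57 ± 0.24 on the HPD (adjusted p = 0.185), or by 0.29 ± 0.24 without Cort HPD replicate 4 (adjusted p = 0.604). Arg2 had 0 counts in 9 libraries and reached 4.45 and 11.4 CPM in Cort HPD replicates 3 and 4, and Slc25a13 was at 8.30 CPM in Cort HPD replicate 4, the library with the epididymis and testis markers. Without that library Arg2 was at 0, 1.26 and 4.45 CPM in Cort HPD and at most 0.209 CPM in Veh HPD. All 5 red blood cell markers were called higher in Cort HPD than in Veh HPD and than in Cort NPD, and their part in these values was not tested. Among the neighbouring genes in eWAT, Glud1 (glutamate dehydrogenase, which releases ammonia from glutamate) rose with cort by 0.78 ± 0.13 on the NPD (adjusted p = 0.000202) and by 0.81 ± 0.13 on the HPD (adjusted p = 0.000156), both called in all 16 fits with a library left out. Oat rose by 0.54 ± 0.14 on the NPD (adjusted p = 0.0152, and up to 0.107 without Veh NPD replicate 3 or Cort NPD replicate 2), and Gamt, the second enzyme of creatine synthesis, by 0.96 ± 0.16 on the HPD. Slc38a5, a glutamine transporter, was called on the HPD (4.73 ± 1.32), a call lost in 11 of 16 such fits (2.60 without Cort HPD replicate 4, adjusted p = 0.330). The regulator Cebpa was higher with cort by 0.55 ± 0.14 (NPD) and 0.52 ± 0.14 (HPD), Axin2 by 1.13 ± 0.26 (NPD) and 1.57 ± 0.26 (HPD), and Tbx3 fell by 0.70 ± 0.21 with cort on the HPD, a call lost in 7 of 16 fits, as that of Cebpa on the HPD was in 5.

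The cort effect on the NPD was compared between tissues in 1 fit of 31 libraries. All 10 members entered this fit, but Cps1, Otc, Ass1 and Nags were too low for the test in eWAT and Arg2 in liver. These entered through the other tissue, and the fit cannot show whether their effects differ. Asl was the 1 member of 10 called, where 3.85% of 16482 genes were. Its effect was larger in liver by 1.37 ± 0.27 on the log2 scale (adjusted p = 0.00157), since eWAT held 9.85 ± 1.65 CPM in Veh NPD and 9.04 ± 1.09 CPM in Cort NPD (SD, n = 4 each). For HPD over NPD in cort mice Nags was the 1 called (adjusted p = 0.0439), where 1.23% of all genes were. In eWAT its call rests on 8 and 11 counts in Cort HPD replicates 1 and 4 against 0 in Cort NPD, and it was lost in 25 of 31 fits with a library left out and with limma voom. The effect of Glul did not pass in either test (−0.23 ± 0.26, adjusted p = 0.746, and −0.16 ± 0.26, adjusted p = 0.858).

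The genes whose levels followed Cps1 and Glul most closely over the 15 liver libraries were looked up among 5956 genes with a mean of at least 10 CPM. For Cps1 they were Dlg1 (Pearson's r = 0.898), Dennd4a (0.887) and C77080 (0.887), and for Glul they were Polr2a (0.839), March6 (0.823) and Ddx6 (0.822). Without Cort HPD replicate 1, Dsc2 (0.958) and Dlg1 (0.938) led for Cps1 and Arhgap35 (0.876) and March6 (0.861) for Glul. With all 16 libraries Slco1a1 (0.944), Serpinc1 (0.926) and Slc1a2 (0.918) led for Glul. These are descriptions over libraries that share groups and scaling, and which genes led depended on 1 library.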

How the data were processed

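RNA from liver and eWAT of male mice was measured in 32 QuantSeq 3′ libraries. What the authors deposited is a table of raw counts for Ensembl genes without normalization, in which each library has its own column and all columns were used. The build was GRCm38 (mm10) and the tools R 4.0.3 and limma per the submitters' processing notes, and the aligner, counter and annotation are not given in the sources used here. Symbols and positions came from GENCODE M21 (47224 of 47643 IDs matched) and promoters from RefSeq. The labels name each replicate as a separate sample of its group, and no source used here links a replicate number to a litter or day. If samples were not separate mice, p-values measure only the spread between samples.

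The analysis used edgeR 4.0.16 and limma 3.58.1 under R 4.3.3. Low genes were removed with filterByExpr, set to a minimum count of 10 and a total of 15. TMM factors, 0.754 to 1.11 in liver, scaled the libraries, and each tissue was fitted with 1 mean per group by the robust quasi-likelihood test. Benjamini-Hochberg adjustment ran over all genes of a fit, and genes with an adjusted p under 0.05 were called. A level of Veh HPD replicate 4 in liver is scaled with all 16 libraries. Alternatives were RLE factors, library totals, DESeq2 1.42.0, limma voom, no filter, only the groups compared, a replicate block, all libraries and each library left out. The steps were tested on simulated data.

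The members and gene lists were chosen with earlier results of these data known. Named were all members, with log2 changes where called and for Cps1 and Glul in every liver contrast, and up to 4 called genes per list and contrast by smallest p. Values of other members were added after they were seen. Precision is set by 3 or 4 libraries per group rather than by depth for members above 10 CPM.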

Additional observations from a re-analysis of the deposited data

Results flagged for a closer look

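In 51 groups of 4 libraries tested for a library far from the others, chance alone flags about 5% where values are near normal, and 5 were found. In liver, Cps1 was at 979 CPM in Cort HPD replicate 1, far below the nearest library (1743 CPM), and this is the library whose other members also departed from the group. Nags in liver was at 35.1 CPM in Veh NPD replicate 2, where the other 3 libraries lay between 38.9 and 39.1 CPM, a gap of few CPM in a tight group. In eWAT, Arg2 was at 1.64 CPM (22 counts) in Veh NPD replicate 2 and at 0.209 CPM (4 counts) in Veh HPD replicate 2, with 0 counts in the other libraries of both groups. Where the others are at 0, any count in 1 library is flagged, so the chance rate does not hold for these flags. Slc25a13 in eWAT was at 8.30 CPM in Cort HPD replicate 4, the library with 9285 CPM of epididymis and testis markers, and at most 0.632 CPM in its group mates. The part of those cells in its level was not tested.

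By a test of the difference, the effect of cort on the NPD differed between liver and eWAT for Asl (1.37 higher in liver on the log2 scale, adjusted p = 0.00157 by edgeR). For the HPD in cort mice the test also called Nags (−4.94, adjusted p = 0.0439 by edgeR), which was too low for the test in eWAT. That call rests on 8 and 11 counts in eWAT Cort HPD replicates 1 and 4 and does not show a difference between tissues. The value for Nags is fitted against a group at 0 counts in eWAT, depends on the prior count and is no estimate of a fold change.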

How the results depend on the processing

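Of the member and list gene values recomputed, 1184 stayed on the same side of the threshold with the same direction, 208 lost a call and 8 gained 1. Directions turned, in changes that were not called, for Cps1 with cort on the HPD with library totals (−0.050), for Glul with cort on the HPD with all 16 liver libraries (0.14) and for Glul on the HPD in veh mice with all 16 (−0.30) and, with each library left out, where it ran from −0.091 (without Veh HPD replicate 1) to 0.12 (without Veh HPD replicate 3).

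Of the recomputed counts of members called, 235 stayed the same or nearly so and 65 shifted more, or to or from 0. Only the larger shifts are listed below, and smaller ones, such as 2 to 3 for the HPD in cort mice with DESeq2, are left out. In liver, the 4 members called for cort on the NPD became 2 with all 16 libraries. The 3 for cort on the HPD became 1 with library totals, with only the groups compared and with the replicate block. The 0 for the HPD in veh mice became 2 (Cps1 and Ass1) with DESeq2, without a filter and with only the groups compared. The 2 for the HPD in cort mice became 1 with library totals (Glul), limma voom or only the groups compared (Arg1), and 0 with the replicate block or all 16 libraries. In eWAT, the 0 for cort on the NPD became 1 (Glul) with DESeq2, limma voom, only the groups compared and the replicate block, and the 0 for cort on the HPD became 1 (Arg2) with the block. Between tissues, the 1 for the HPD in cort mice (Nags) became 0 with limma voom, the block and all 32 libraries. The cause was not tested. With each library left out, the counts in liver ran from 1 to 5 and 1 to 3 for cort on the NPD and HPD, 0 to 2 for the HPD in either treatment and 0 to 0 for the interaction. In eWAT they ran from 0 to 1 for cort on the NPD and stayed at 0 otherwise, and between tissues they were 1 to 1 and 0 to 1.

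The correlation of deviations between libraries of the same replicate number ran from −0.131 to 0.161 over 21 pairs in liver. In eWAT it ran from −0.115 to 0.253 over 24 pairs. For different numbers it ran from −0.222 to 0.201 in liver and from −0.178 to 0.218 in eWAT. Between tissues it ran from −0.004 to 0.113 over 15 pairs of the same number (median 0.022). For 45 pairs of different numbers it ran from −0.089 to 0.061 (median −0.015). Such values cannot settle whether replicate numbers pair the samples. The fit of both tissues treated their libraries as independent. Since no source used here links the numbers to mice, the block results are given only here. Depth limits Arg2 in liver and Cps1, Otc, Nags and Ass1 in eWAT, which were too low for the test.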
